A study of Mus musculus with 7 samples.

Results

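The broad Suz12 domains of mouse embryonic stem cells (ESCs) are described here. They are the peaks of the ESC Suz12 list that span 4000 bp or more on chromosomes 1 to 19 and X, whether or not Zfp281 was found there. There were 526 of them among 8184 ESC Suz12 peaks, or 6.43%, and they took 4.16 Mb, or 32.5% of the length covered by the list. The members were chosen by the width of the Suz12 peak, so widths and Suz12 enrichments are given as descriptions only. The Zfp281 lists played no part in the choice.

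Suz12 is a core subunit of Polycomb repressive complex 2, the enzyme complex that methylates lysine 27 of histone H3 and helps to keep developmental genes silent. In ESCs the complex gathers at CpG islands, and its widest stretches are known to lie over gene clusters and long CpG-rich loci of developmental transcription factors. Zfp281 is a zinc finger transcription factor that binds G-rich DNA and is known for roles in pluripotent cells. Extraembryonic endoderm stem cells (XENs) are stem cells of the lineage that forms the yolk sac endoderm. The series title describes Zfp281 as a barrier to the change of ESCs into XENs.

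Each list came from 1 library of ChIP-seq (sequencing of DNA that an antibody brings down with its bound protein), in cells of strain 129S1 with no genetic change or drug named. The groups used were ESC Suz12, ESC Zfp281 and XEN Zfp281, with the short XEN Suz12 and XEN H3K27me3 lists for 1 comparison. ESCs were grown without feeder cells in serum with leukemia inhibitory factor, and XENs without feeder cells in medium conditioned by mouse embryonic fibroblasts. No group had a replicate, so no difference below has a test against the spread between samples. Intervals of shares are 95% Wilson intervals, those of densities are exact 95% Poisson intervals, and both cover counting error only. Neighbouring peaks are not independent. No expression was measured, so the identity of the cells could not be set against marker genes.

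Positions are given as in the authors' lists, on mm9 per the submitters' processing notes, counting from 1. Loci are named by position alone, since no annotation or sequence of mm9 was used here and the lists name no genes.

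The domains were wide and strongly bound. Their width had a median of 6430 bp (quartiles 4804 and 9213 bp), and 115 spanned at least 10 kb, 33 at least 15 kb and 12 at least 20 kb. The authors' fold enrichment at the Suz12 summit ranged from 4.17 to 40.1 with a median of 19.6, against a median of 5.22 for the 7658 narrower Suz12 peaks. By the authors' score, 435 domains stood in the top 10% of the list, and the lowest ranked 4087. The narrowest member spanned 4015 bp (chromosome 12, 112679793 to 112683807, 10.5-fold). The widest peak left out spanned 3990 bp (chromosome 8, 72409114 to 72413103, 7.56-fold), so the limit cuts through a continuous range. Summits of the domains rested on 37.0 to 282 Suz12 tags (median 159), read from the fold and the -log10 p-value. The control level at the summits had a median of 3.50 and a minimum of 2.82 on the scale of the list.

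**Figure D1:**
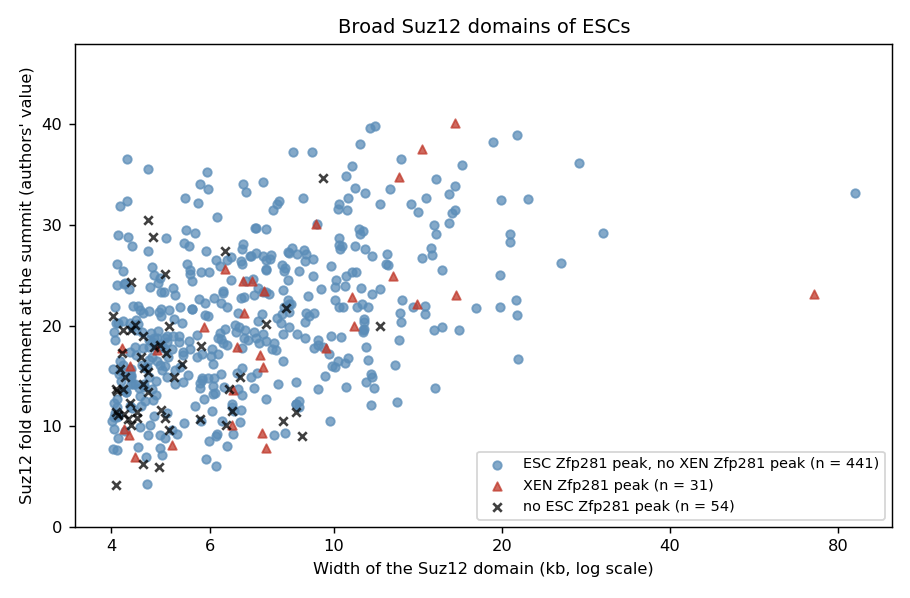
Width of each of the 526 broad Suz12 domains (x axis, kb, log scale) against the authors' Suz12 fold enrichment at its summit (y axis). Blue circles mark domains with an ESC Zfp281 peak and no XEN Zfp281 peak, red triangles those with an XEN Zfp281 peak and crosses the 54 without an ESC Zfp281 peak, which lie mostly at the narrow end. The widest domain spans 85.8 kb.

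A pair of domains stood far above the others in width, and both carried Zfp281 along much of their length. The widest of all spanned 85.8 kb (chromosome 11, 96133144 to 96218983), with a 33.2-fold Suz12 summit and 21 ESC Zfp281 summits that covered 47.6% of it with their peaks. The second spanned 72.3 kb (chromosome 15, 102778814 to 102851089), with a 23.1-fold Suz12 summit, 18 Zfp281 summits and 39.4% of its length covered. The third and the fifth in width were neighbours that the list keeps apart. One of 30.3 kb (chromosome 6, 52154092 to 52184381) held 9 Zfp281 summits, and the other of 25.5 kb (52184707 to 52210220) held 4, with only 325 bp between them. On chromosome 2, a domain of 21.4 kb (74558913 to 74580324) had a 16.7-fold Suz12 summit and 7 Zfp281 summits.

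Strong and weak Zfp281 sites were mixed along these domains. In the domain of 85.8 kb the strongest Zfp281 summit lay 28.8 kb from the start, at 38.3-fold on 190 tags, and ranked 236 among the 52296 ESC Zfp281 peaks. Other summits there were 19.9-fold on 86 tags at 74.7 kb and 17.5-fold on 121 tags at 78.3 kb, while the weakest was 3.51-fold on 20 tags at 68.3 kb. The domain of 72.3 kb had 3 summits above 20-fold, at 8.92 kb (23.8-fold), 51.8 kb (23.9-fold) and 62.1 kb (22.1-fold), and its weakest, at 71.1 kb, was 2.81-fold on 13 tags. Neither domain had its Zfp281 gathered at a single place.

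The fourth in width spanned 27.5 kb (chromosome 2, 105504608 to 105532075) and combined strong binding of both proteins. It had a 36.2-fold Suz12 summit and 7 Zfp281 summits. One of them, 25.2 kb from the start, reached 40.1-fold on 162 tags, and the other 6 ranged from 3.21 to 14.6-fold. The strong Zfp281 site and the Suz12 summit lay at opposite ends, since the Suz12 summit was 5026 bp from the start. Further domains over 20 kb lay on chromosome 17 (86005690 to 86027989, 7 Zfp281 summits), chromosome 2 (9793326 to 9814612, 8 summits, and 71363996 to 71384690, 7 summits), chromosome 4 (139373827 to 139395074, 7 summits), chromosome 9 (74695106 to 74716283, 7 summits) and chromosome 12 (74135332 to 74156041, 7 summits). Peaks of Zfp281 covered 21.5 to 59.3% of these 6. Each of the 12 domains of at least 20 kb thus held 4 or more Zfp281 summits.

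**Figure D2:**
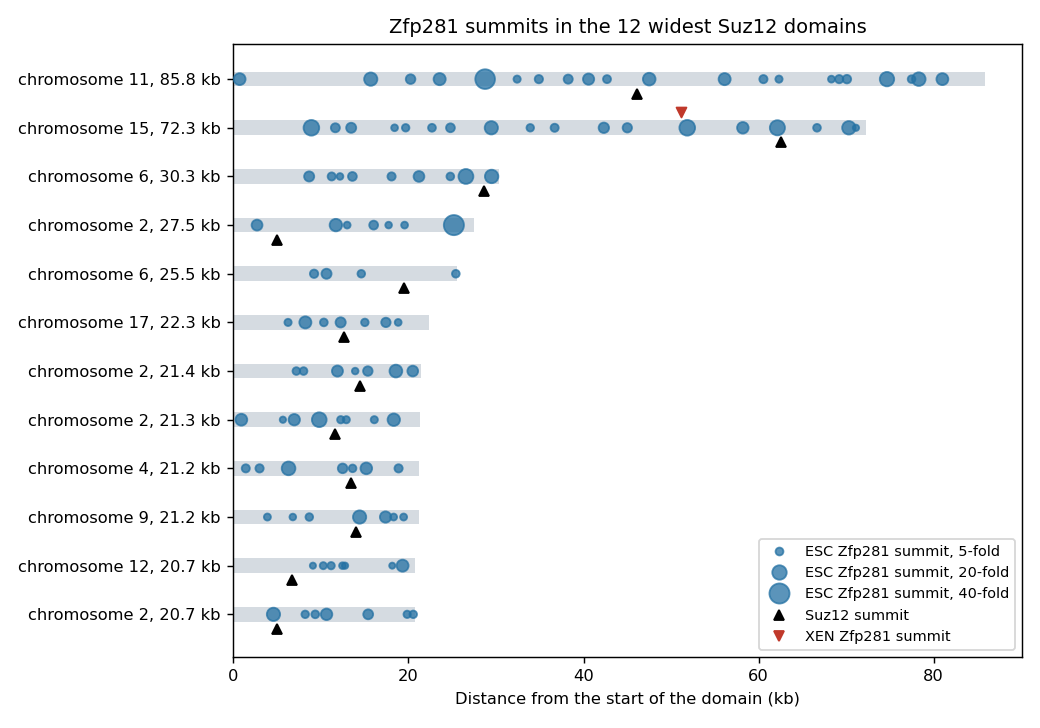
Maps of the 12 widest Suz12 domains, to scale, with distance from the start of each domain on the x axis (kb). Grey bars are the domains, blue circles ESC Zfp281 summits with an area that grows with the authors' fold enrichment, black triangles Suz12 summits and the red triangle the only XEN Zfp281 summit in these 12. The domain of 85.8 kb carries 21 Zfp281 summits along its length.

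Nearly all broad domains met Zfp281. An ESC Zfp281 peak overlapped 472 of the 526 domains by at least 1 bp, or 89.7% (86.8 to 92.0%), where 45.8% of all ESC Suz12 peaks did and 42.8% (41.7 to 43.9%) of the narrower ones. Of the domains, 136 met 1 Zfp281 peak, 167 met 2, 92 met 3, 38 met 4, 19 met 5 and 20 met 6 or more. Thus 63.9% (59.7 to 67.9%) met at least 2, where 8.09% of all ESC Suz12 peaks did. The number of Zfp281 summits inside the domains was 998, and 90.1% of their peaks lay wholly inside. In 29 domains a Zfp281 peak reached in from outside with no summit inside. Over a domain, Zfp281 peaks covered a median of 26.5% of the length (quartiles 15.4 and 39.6%), and at least 50% in 79 domains.

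A wide peak meets more Zfp281 peaks simply by its length, so the summits were also counted per length. The domains had 2.40 Zfp281 summits per 10 kb (2.25 to 2.55) and the narrower Suz12 peaks 1.91 (1.82 to 2.01), a ratio of 1.25. The class just below the limit, 307 peaks of 3000 to under 4000 bp, had 2.12 (1.86 to 2.42), an interval that overlapped that of the domains. Of that class, 72.3% (67.1 to 77.0%) met a Zfp281 peak. Among the domains the density did not follow width. It was 2.38 summits per 10 kb (2.03 to 2.76) in the 161 domains of 4000 to under 5000 bp, 2.29 (1.99 to 2.61) in the 82 of 10000 to under 15000 bp and 2.55 (2.20 to 2.94) in the 33 of at least 15000 bp. Over the same classes the share with a Zfp281 peak went from 78.3% (71.3 to 83.9%) to 98.8% (93.4 to 99.8%) and 100% (89.6 to 100%). Summits in 1 domain lay a median of 2222 bp apart (quartiles 1393 and 3482 bp). On chromosomes 1 and 8, where the control level at the Zfp281 summits of the domains had a median of 4.96 against 3.31 elsewhere, the density was 2.43 (1.98 to 2.96), against 2.39 (2.24 to 2.55) on the other chromosomes. The share of domains with a Zfp281 peak was 96.6% (88.3 to 99.0%) of 58 there and 88.9% (85.7 to 91.4%) of 468 elsewhere, with overlapping intervals. This split by chromosome was not among the planned results.

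**Figure D3:**
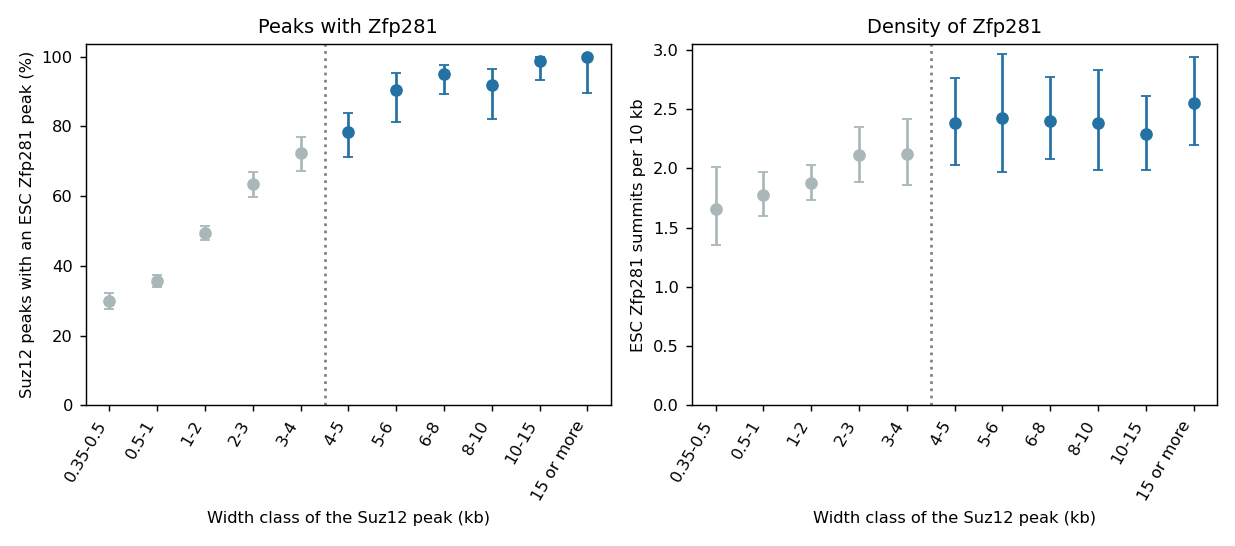
Suz12 peaks by width class (x axis, kb), with the broad domains in blue to the right of the dotted line. The left panel gives the percentage with an ESC Zfp281 peak (bars: 95% Wilson intervals), which climbs with width to 100%, and the right panel the ESC Zfp281 summits per 10 kb (bars: exact 95% Poisson intervals), which stay between 2.29 and 2.55 in the broad classes.

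The Zfp281 peaks in the domains covered the full range of strength. Their fold had a median of 6.17 (quartiles 4.24 and 10.7, highest 47.6), against 5.42 for the 48233 ESC Zfp281 peaks without any Suz12 peak and 7.22 for the 3010 at narrower Suz12 peaks. They were wider than those without Suz12, with a median of 876 bp against 579 bp, and close to the 906 bp at narrower Suz12 peaks. Peaks in domains were taken by summit and those at narrower Suz12 peaks by overlap of at least 1 bp, so the sets were not drawn alike. In the domains 14.9% (12.9 to 17.3%) of the Zfp281 peaks belonged to the top 10% of their list by score, and 41.2% (38.2 to 44.3%) to the lower 50%. Their summits rested on 11 to 233 tags, with a median of 29. The strongest of all lay on chromosome 2, in a domain that starts at 109512524, and was the one with 233 tags.

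Within a domain Zfp281 lay slightly more often towards the middle than the edges. The central 50% of the domain length held 54.0% (50.9 to 57.1%) of the summits, and the outer 10% at both ends together 15.1% (13.0 to 17.5%), where an even spread would give 50% and 20%. Where a domain had a single Zfp281 summit, it lay in the central 50% in 62.0% of 163 domains (54.3 to 69.1%). Suz12 summits were more central, with 68.6% (64.5 to 72.4%) in that part. The distance from a Zfp281 summit to the Suz12 summit of its domain had a median of 2054 bp (quartiles 862 and 4166 bp), and 13.0% (11.1 to 15.3%) lay within 500 bp.

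Zfp281 summits were concentrated in the short breaks between a domain and its Suz12 neighbours. Another Suz12 peak lay within 1 kb of 337 of the 526 domains. This gave 346 gaps under 1 kb beside a domain, with a median of 381 bp and 147 kb in all. The gaps had 4.77 Zfp281 summits per 10 kb (3.72 to 6.03, from 70 summits), about 2 times the 2.40 inside the domains, and 52.6% (47.3 to 57.8%) of them met a Zfp281 peak. The first kb outside the 634 domain edges with no Suz12 peak that near had 0.883 per 10 kb (0.667 to 1.15). Over all edges, with or without a neighbour, the density was 2.02 (1.76 to 2.32) in the first kb outside, 1.06 (0.966 to 1.17) at 1 to 5 kb and 0.593 (0.548 to 0.642) at 10 to 20 kb. The outside stretches were laid out from each edge alone. They can include neighbouring Suz12 peaks and domains, and 1 summit can count from more than 1 edge. The 2080 gaps between narrower Suz12 peaks were like those beside domains, with 4.88 per 10 kb (4.45 to 5.33), so the pattern was not particular to broad domains. In gaps, the Zfp281 peaks had a median fold of 8.44 (quartiles 4.53 and 15.3), and 16 of the 70 belonged to the top 10% of the list.

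The strongest Zfp281 peak of this kind stood beside the Suz12 domain with the highest score. That domain spanned 11.1 kb (chromosome 1, 157578245 to 157589381, 38.1-fold) and held 1 summit of only 4.89-fold. The break of 259 bp at its right edge held the summit of a Zfp281 peak from 157587636 to 157590739, at 61.2-fold the 8th of its list. A like case was a 34.6-fold Zfp281 peak (chromosome 6, 52124977 to 52127416), which had its summit in the gap after a domain of 16.6 kb (52109118 to 52125692). The domain with the third highest score (chromosome 2, 74494119 to 74505957, 39.8-fold), had no Zfp281 summit, and a Zfp281 peak covered 1.71% of it.

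**Figure D4:**
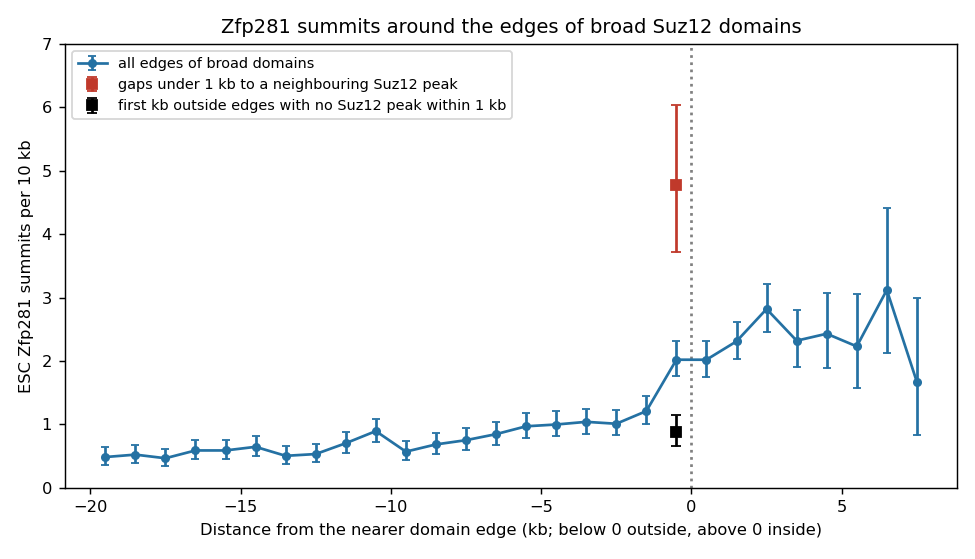
ESC Zfp281 summits per 10 kb (y axis) by distance from the edge of a broad domain (x axis, kb, outside below 0 and inside above 0). Bars are exact 95% Poisson intervals. Inside, the nearer edge was used. Outside, each edge was taken alone, so the stretches can include neighbouring Suz12 peaks and count a summit more than 1 time. The blue line covers all edges of the 526 domains, the red square gaps under 1 kb to a neighbouring Suz12 peak (4.77) and the black square the first kb outside edges with no Suz12 peak within 1 kb (0.883).

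No ESC Zfp281 peak met 54 domains. They were narrower than the other 472, with a median of 4650 bp against 6748 bp, and less enriched for Suz12, with a median of 14.9-fold (quartiles 11.2 and 19.4) against 20.3-fold (15.4 and 25.6). Among domains of at least 5000 bp the Suz12 medians were 14.9-fold for the 19 without and 21.9-fold for the 346 with Zfp281. Within this class the 19 were also narrower, with a median of 6508 bp against 7926 bp. In the class of 4000 to under 5000 bp the Suz12 medians were 14.2-fold for 35 and 16.5-fold for 126. The quartile ranges overlapped in both classes and over all domains. The widest without Zfp281 spanned 12.1 kb (chromosome 9, 24573282 to 24585360, rank 474 by score). The next spanned 9.57 kb (chromosome 3, 99037903 to 99047468) and was one of the strongest of the list at 34.7-fold, rank 30. A pair of neighbours on chromosome 18 (37900992 to 37909785 and 37910967 to 37917474) spanned 8.79 and 6.51 kb with Suz12 at 9.07 and 13.7-fold. The domains without Zfp281 were thus less enriched for Suz12 at the median, though they included the strong one of rank 30.

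In XENs, Zfp281 peaks were found at few of these loci. An XEN Zfp281 peak overlapped 31 of the 526 domains, or 5.89% (4.18 to 8.24%), where 1.99% of all ESC Suz12 peaks had one and 1.72% (1.46 to 2.04%) of the narrower ones. Per length the domains did not stand out, with 0.110 XEN summits per 10 kb (0.0809 to 0.147) against 0.109 (0.0879 to 0.133). The 47 XEN peaks in the domains were of medium strength, with a median of 6.05-fold against 6.35-fold for all 3449 XEN Zfp281 peaks, and 2 belonged to the top 10% of the XEN list. Of the 47, 44 overlapped an ESC Zfp281 peak, with a median of 166 bp between the summits. The like share over all 3449 XEN peaks is not given here, so this is not read as particular to the domains. In the whole ESC list, 2666 Zfp281 peaks overlapped an XEN peak. The 31 domains each had at least 1 ESC Zfp281 peak. Their Suz12 fold, with a median of 19.9, was close to the 19.6 of the other 495. In XENs the Suz12 and H3K27me3 lists had 4 peaks and 1 peak, and none lay closer than 746 kb to a broad domain. Lists this short could meet few loci of any kind, so no loss of Suz12 or H3K27me3 in XENs can be read from this.

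Strong ESC Zfp281 sites had an XEN counterpart less often in broad domains than at sites without Suz12, by intervals that did not overlap. Of the ESC Zfp281 peaks with a summit in a domain, 3.21% (2.28 to 4.49%) overlapped an XEN peak, where 5.10% of all ESC Zfp281 peaks did. Among those in the top 10% of the ESC list by score, it was 13 of 149, or 8.72% (5.17 to 14.4%). The same top 10% gave 26.4% (25.1 to 27.7%) of 4499 peaks without Suz12 and 102 of 568 (15.0 to 21.3%) at narrower Suz12 peaks. The set at narrower peaks was taken by overlap of at least 1 bp, not by summit. It can include peaks whose summit lay in a gap beside a domain. Its interval began just above the end of that of the domains, and whether this holds with like rules was not tested. These 3 sets were equally enriched in ESCs, at medians of 19.3, 19.2 and 19.3-fold for domains, no Suz12 and narrower peaks, and those in domains were the widest, at a median of 2053 bp against 1716 bp at narrower Suz12 peaks and 1320 bp without Suz12. For the next 40% of the list (10 to 50%) the shares were 3.65% (2.26 to 5.85%) in domains and 5.10% (4.80 to 5.42%) without Suz12, and for the lower 50% they were 0.730% (0.249 to 2.12%) and 1.22% (1.09 to 1.36%), with overlapping intervals. With 1 library per cell type, a difference between the cells and one between the libraries cannot be told apart.

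**Figure D5:**
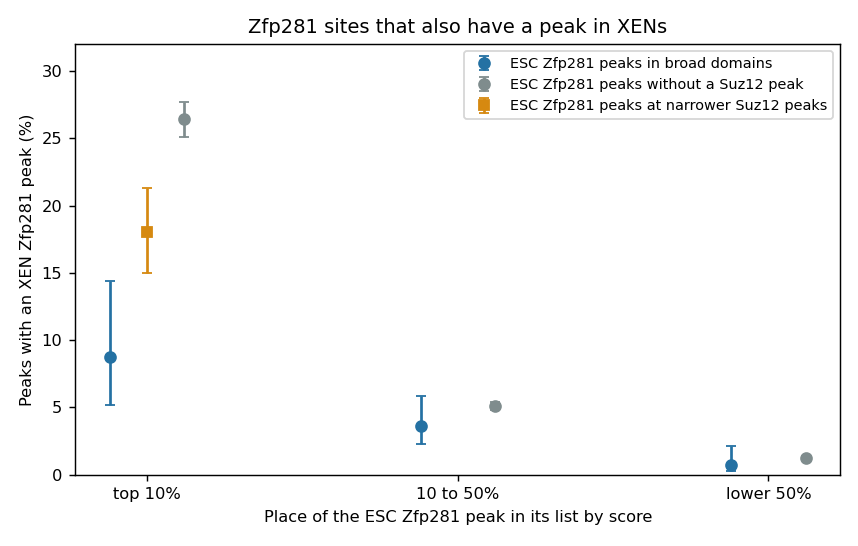
Percentage of ESC Zfp281 peaks that overlap an XEN Zfp281 peak (y axis, bars: 95% Wilson intervals) by their place in the ESC list by score (x axis). In the top 10% the peaks in broad Suz12 domains reach 8.72%, those without Suz12 26.4%, and those at narrower Suz12 peaks (102 of 568) lie between. Peaks in domains are taken by summit and those at narrower Suz12 peaks by overlap. Lower in the list the values for domains and for peaks without Suz12 lie close together.

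The XEN peaks with the highest scores in domains were as follows. A domain of 6.61 kb on chromosome 5 (143579514 to 143586122, Suz12 13.6-fold) had 4 XEN peaks, the most of any domain, of which the best was 15.1-fold and ranked 108. A single ESC Zfp281 peak of 7866 bp, 29.7-fold, spread over 93.7% of this domain, and its summit lay 5079 bp from that of the best XEN peak. Another of the 4 XEN peaks, at 5.58-fold, had its summit 15 bp from that ESC summit. On chromosome 13, a domain of 4.18 kb (51941652 to 51945836) had a 12.5-fold XEN peak 28 bp from a 42.4-fold ESC Zfp281 summit. On chromosome 11, one of 7.15 kb (118895164 to 118902314) had a 9.40-fold XEN peak 5 bp from a 34.1-fold ESC summit. In the first 2 of these domains there was no other ESC Zfp281 peak, and in the third the XEN peak lay at the strongest of 5.

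The next 3 by XEN score had weaker ESC Zfp281 peaks. A domain of 6.38 kb (chromosome 1, 4482369 to 4488752, Suz12 25.6-fold) had ESC Zfp281 summits of 7.65 and 5.93-fold, and its XEN peak of 7.71-fold lay 170 bp from the weaker one. One of 14.4 kb (chromosome 2, 147861854 to 147876225, Suz12 37.6-fold) had 3 ESC Zfp281 summits of 7.72 to 9.72-fold and 2 XEN peaks, ranks 580 and 1260. One of 10.8 kb (chromosome 5, 75542621 to 75553401, Suz12 22.8-fold) had 6 ESC Zfp281 summits of 2.41 to 15.4-fold and 3 XEN peaks of 5.33 to 8.23-fold. In these 3 domains the best XEN peak lay at the ESC Zfp281 peak with the second highest fold. In domains that met 2 or more ESC Zfp281 peaks, 16 of 31 XEN peaks lay at the strongest of those with a summit inside. Peaks with a summit outside were not ranked. In a domain on chromosome 2 (118719597 to 118726974) such a peak was 27.9-fold, against 21.1-fold for the strongest inside.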

How the data were processed

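In all, 5 peak lists were used, 1 per immunoprecipitated library, each with 10 columns and no header. Per the submitters' processing notes, the build was mm9 and FastQC 0.10.1, Bowtie2 2.3.4 and SAMtools 0.1.19 were used. The peak caller, control and treatment of duplicates are not given in the sources used here. The authors deposited for each peak a score, a fold enrichment (a ratio to the local control level) and p- and q-values as -log10. They are the authors' own values and were used within each list alone. Where a caller splits a wide signal, 1 domain becomes several.

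Overlaps were counted at 1 bp or more and positions by summit, with Python 3.11.15, numpy 2.4.6, pandas 2.3.3 and scipy 1.17.1, checked on simulated lists. Tags at a summit were computed from fold and p-value, taking the fold as pileup plus 1 over control plus 1 and the p-value as a Poisson tail. All 526 Suz12 and 998 Zfp281 values came out whole within 0.1 after division by a scale of 0.590, fitted to these values, for Suz12 and none for Zfp281, taking the solution nearest to a whole number where there were several. The number of reads per library was not analysed here.

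Samples were grouped by title. No test was run, since each group had 1 library. The members and lists were chosen with earlier results of these data known. Domains named are the 15 widest, the 10 of highest score, the 10 with most Zfp281 summits, the 10 widest without Zfp281, the 20 with the best XEN peak and those next to the limit, and the text gives a part of these. The domain with the strongest Zfp281 summit and the Zfp281 peaks in gaps were chosen after their values were seen. The gene and promoter tables at hand were on GRCm38.p6, so no gene was placed, no sequence is printed, and the planned gene lists were not used.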

Additional observations from a re-analysis of the deposited data

How the results depend on the processing

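No paired analysis was possible because there was 1 library for each group. Of 47 alternative values, 35 stayed within the interval of the reported value (for the number of domains, within 1.5 times). For the covered length, that interval was the one of the summit density, scaled to the covered length. For the ratio it was computed from the summit counts of both sets. The setting with the upper 50% of Suz12 peaks by score could move only the ratio, since all 526 domains stood in that part. Its other values were fixed in advance. With a limit of 3000 bp there were 833 domains, of which 83.3% met an ESC Zfp281 peak, and with 5000 bp 94.8% did. That share was 84.2% when the summit had to lie inside, 86.3% when at least 50% of the Zfp281 peak did and 77.4% with the upper 50% of Zfp281 peaks by score. The last setting removes peaks by construction and also gave 1.41 summits per 10 kb of domain, 23.3% of the length covered and 3.34 summits per 10 kb of gap. Gaps under 500 bp gave 6.11. Domains with a single summit had 62.0% of them in the central 50%, while the other settings gave 52.8% (upper 50% of Zfp281 peaks) to 54.3% (3000 bp or more). The upper 50% of XEN peaks left 2.85% of the domains with one. The ratio of 1.25 between broad and narrower peaks stayed between 1.23 and 1.26. Settings for gaps, for domains under 20 kb and for the strongest Zfp281 peaks (8.05 to 9.45% with an XEN peak) were chosen after seeing the data. The planned shares at transcription start sites, of gene lists and of a G-rich element were not run, with their alternatives, because no annotation or genome of mm9 was used. The weakest Zfp281 summits in the domains rest on 11 tags, so the domains without a Zfp281 peak are those without a called one.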

Other observations

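A part of the broad domains came in groups. With at most 50 kb between neighbours, 245 of the 526 domains fell into 98 runs of 2 or more. The like share for all Suz12 peaks is not given here. Another broad domain lay within 1 kb of 135 of the 526. Whether such neighbours are 1 wide signal that the list splits was not tested. The runs with the most domains had 8 each. In one, which spanned 157 kb (chromosome 6, 52109118 to 52266569), the domains held 24 Zfp281 summits. In the other, which spanned 98.7 kb (chromosome 2, 74494119 to 74592819), the domains held 17. A run of 6 domains over 154 kb (chromosome 15, 102739284 to 102893215) held 24 inside its domains. A run of 5 on chromosome 7 (77423656 to 77516558) spanned 92.9 kb, with 10 inside its domains. The 4 domains of a run on chromosome 13 (78318880 to 78351169) held only 2. Summits in the gaps between the domains of a run are not in these counts. These runs were picked by their number of domains or, for the last, after its value was seen.

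The share of Suz12 peaks that were broad differed between chromosomes. It was 11.2% on chromosome 13 (39 of 347 peaks) and 9.19% on chromosome 19 (25 of 272), and 2.80% on chromosome 17 (9 of 322) and 3.48% on chromosome X (7 of 201). Chromosome 2 held the most domains, 60 of 696 peaks.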
